A study of Mus musculus with 24 samples.

Results

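Osteopontin (Spp1), its receptor Cd44, the provisional matrix genes Fn1 and Tnc, the filament gene Vim and the integrin genes Itgav and Itgb6 were followed in injured mouse kidney. These 7 genes of the 40750 in the deposited table were taken by their gene names, and each was measured in all 24 libraries. Relative to sham surgery, Spp1 and Cd44 rose at day 2, day 7 and day 14 after ischemia in both RNA fractions studied, and they were the members called in all 6 of those comparisons. Spp1 reached 5958 to 16888 RPKM (reads scaled to gene length and library size) at day 2, against 193 to 557 RPKM in sham kidneys.

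The kidneys came from 12 male mice, 8 to 10 weeks old and of mixed background, all heterozygous for Kim1-GCE and for EGFPL10a. Kim1-GCE places a tamoxifen-dependent Cre under the Kim1 gene (Havcr1), which injured proximal tubule switches on, and EGFPL10a is a tagged ribosomal protein that Cre turns on. Tamoxifen was given 6 hours before and 24 hours after surgery, and both renal pedicles were clamped for 20 minutes or, in sham mice, left unclamped. Immunoprecipitation against GFP gave bound RNA, meant to come from tagged cells, and the remaining RNA gave the unbound fraction, which the labels treat as total kidney. The 8 groups of 3 libraries were thus sham surgery and the kidneys of day 2, day 7 or day 14 after ischemia, each in bound and in unbound RNA of the same mice. All groups carried both alleles, and no day of harvest is given for the sham mice.

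Osteopontin is a secreted acidic glycoprotein that carries the RGD sequence read by integrins of the alpha v type and that also binds CD44, the main cell surface receptor for hyaluronan. Fibronectin and tenascin-C are laid down early in wounds as a provisional matrix. The alpha v beta 6 integrin, made of the products of Itgav and Itgb6, is found on epithelia, binds these proteins and releases active TGF-beta from its latent complex. Vimentin is the intermediate filament of mesenchymal cells, podocytes and endothelium, and in the kidney it is also a marker of tubule cells that have lost their differentiated state after injury.

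The stretch before the gene start is shown for the ligand Spp1 and its receptor Cd44, which rose together in every comparison with sham, and for Vim, whose calls were made in unbound RNA. Each is 250 bases, 5′ to 3′ on the gene's strand, from RefSeq on GRCm38.p6, with capitals marking the letters TATAAA where present.
Spp1, chr5:104434861-104435110, plus strand: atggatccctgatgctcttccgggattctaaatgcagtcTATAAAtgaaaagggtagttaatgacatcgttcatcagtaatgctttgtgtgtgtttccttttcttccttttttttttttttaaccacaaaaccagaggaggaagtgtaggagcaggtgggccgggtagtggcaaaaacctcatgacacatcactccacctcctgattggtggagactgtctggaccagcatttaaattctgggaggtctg
Cd44, chr2:102901666-102901915, minus strand: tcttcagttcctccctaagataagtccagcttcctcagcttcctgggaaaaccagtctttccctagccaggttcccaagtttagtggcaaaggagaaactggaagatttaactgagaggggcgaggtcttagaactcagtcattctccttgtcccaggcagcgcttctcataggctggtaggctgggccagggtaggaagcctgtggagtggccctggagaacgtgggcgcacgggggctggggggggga
Vim, chr2:13574061-13574310, plus strand: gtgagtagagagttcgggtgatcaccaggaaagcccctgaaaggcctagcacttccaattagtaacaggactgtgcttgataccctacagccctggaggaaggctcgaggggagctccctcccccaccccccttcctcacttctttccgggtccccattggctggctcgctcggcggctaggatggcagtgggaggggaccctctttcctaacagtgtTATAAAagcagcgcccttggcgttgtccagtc
The RefSeq table matched 6 of the 7 genes, with 9 windows among them, and Fn1 was without an entry. Of these 9 windows, 0 held the AP-1 motif TGANTCA, which 6.75% of the 32851 windows of the same length in the table hold on either strand. The TEAD motif GGAATG was found in 0 windows, against 12.6% of all windows. The GC box GGGCGG was found in 2 windows, both of Tnc, against 32.7%, and TATAAA in 4 windows of Spp1, Tnc and Vim, against 12.4%. The 2 Tnc windows overlap and hold the same GC box and the same TATAAA, so each of these sites is counted in both. Of the Spp1 windows only that shown held TATAAA. Its first base lay 32 bases before the gene start in Vim, 211 in Spp1, and 126 and 205 in the 2 Tnc windows. The motifs were searched on both strands, none of them contains another, and matches describe letters in these windows only.

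Depth inferred from the spacing of low RPKM values ran from 15720000 to 24660000 reads per library. Havcr1, the gene that drives the Cre, lay at 1.49 to 5.61 RPKM in sham, 50.5 to 211 at day 2, 131 to 248 at day 7 and 21.7 to 53.6 at day 14 in bound RNA. In unbound RNA it lay at 3.93 to 24.1 RPKM in sham, 84.5 to 151 at day 2, 38.1 to 125 at day 7 and 18.4 to 34.3 at day 14, so that the bound level exceeded the unbound one in all 3 mice at day 7 and not in sham. Bound libraries also held markers of other cells, and all 12 proximal tubule markers were detected in every library. In both fractions the third day 14 mouse differed from the others of its group. Its macrophage markers summed to 2265 RPKM in bound and 2190 RPKM in unbound RNA, against 145 and 206 in bound and 372 and 451 in unbound RNA of the other day 14 mice. Its stromal markers summed to 744 and 606 RPKM, against 67.6 and 110 in bound and 129 and 182 in unbound RNA of the others. Sham bound library 3 had 432 RPKM of podocyte markers and 952 RPKM of collecting duct markers, against 139 and 149, and 141 and 290, in the other sham bound libraries. Fewer cells of a type and less RNA per cell cannot be told apart in such samples.

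Changes were tested with limma on log2(RPKM + 0.5) over all 24 libraries, with p-values adjusted by the Benjamini-Hochberg method over 13721 genes, and calls were made under 0.05. Fold changes below are on this scale, which understates the change of genes near or below 0.5 RPKM. Cd44, Fn1 and Tnc passed the filter on low values through injured libraries, so the counts that follow describe the genes and do not support a direction. In bound RNA, 5 of the 7 genes rose at day 2, where 13.3% of all tested genes did. At day 7, 4 rose against a background of 15.2%, and at day 14, 3 rose against 8.71%. In unbound RNA, 4 rose at day 2 (9.76% of all genes), 3 at day 7 (0.911%) and 2 at day 14 (0.984%). No member fell against sham in these 6 comparisons. Across all tested genes the median log2 fold against sham was itself 0.13 to 0.22, and -0.04 to 0.02 after median-ratio rescaling of the libraries. Of all genes called, 65.5% to 83.3% were higher than in sham, against 41.3% to 74.7% after median-ratio rescaling and 46% to 71.3% after quantile normalization.

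**Figure D1:**
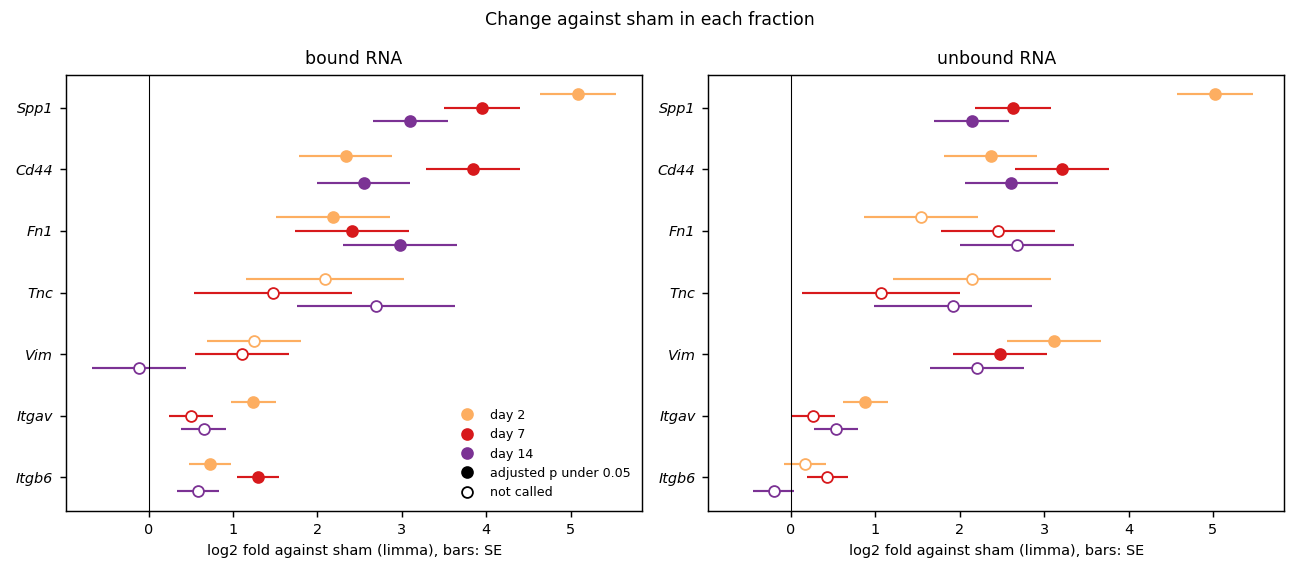
Log2 fold of each gene against sham, from limma on log2(RPKM + 0.5), for day 2, day 7 and day 14 in bound (left) and unbound RNA (right); bars are standard errors and filled points have an adjusted p under 0.05. Spp1 has the highest fold of the 7 genes at day 2 in both fractions (5.09 and 5.02), and Vim is called in unbound RNA at day 2 and day 7 and not in bound RNA.

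Spp1, the ligand, was the most abundant of the 7 genes in every group, and its level was highest at day 2. In bound RNA it had 193, 206 and 283 RPKM in sham, 5958, 11223 and 6659 at day 2, 3538, 2390 and 4947 at day 7, and 2117, 1210 and 2786 at day 14. In unbound RNA it had 328, 503 and 557 RPKM in sham, 12429, 16888 and 15168 at day 2, 2895, 1786 and 4270 at day 7, and 1491, 1195 and 4432 at day 14. All sham libraries lay below all injured libraries of their fraction, and day 2 lay above day 7, while day 7 and day 14 overlapped. Among all genes of a library Spp1 ranked 215 to 281 in sham bound RNA and 3 to 8 at day 2, and in unbound RNA 116 to 218 in sham and 2 to 3 at day 2. It was still at rank 10 to 44 in bound and 8 to 48 in unbound RNA at day 14. Marker sums of several cell types moved with Spp1 from library to library, and the values stand with those of Fn1 and Tnc.

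The log2 folds of Spp1 against sham in bound RNA were 5.09 at day 2 (SE 0.45, adjusted p = 6.51e-07 in limma), 3.95 at day 7 (adjusted p = 1.23e-05) and 3.10 at day 14 (adjusted p = 0.000435). These 3 calls held in all the alternatives run. In unbound RNA the log2 folds were 5.02 at day 2 (adjusted p = 8.5e-07), 2.63 at day 7 (adjusted p = 0.00508) and 2.14 at day 14 (adjusted p = 0.0267). The day 7 call was lost without day 7 unbound library 3 (log2 fold 2.33, adjusted p = 0.0718). The day 14 call was lost without sham unbound library 1, 2 or 3 (log2 folds 1.91, 2.22 and 2.29, adjusted p = 0.131, 0.074 and 0.0794) and without day 14 unbound library 3 (1.56, adjusted p = 0.285).

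**Figure D2:**
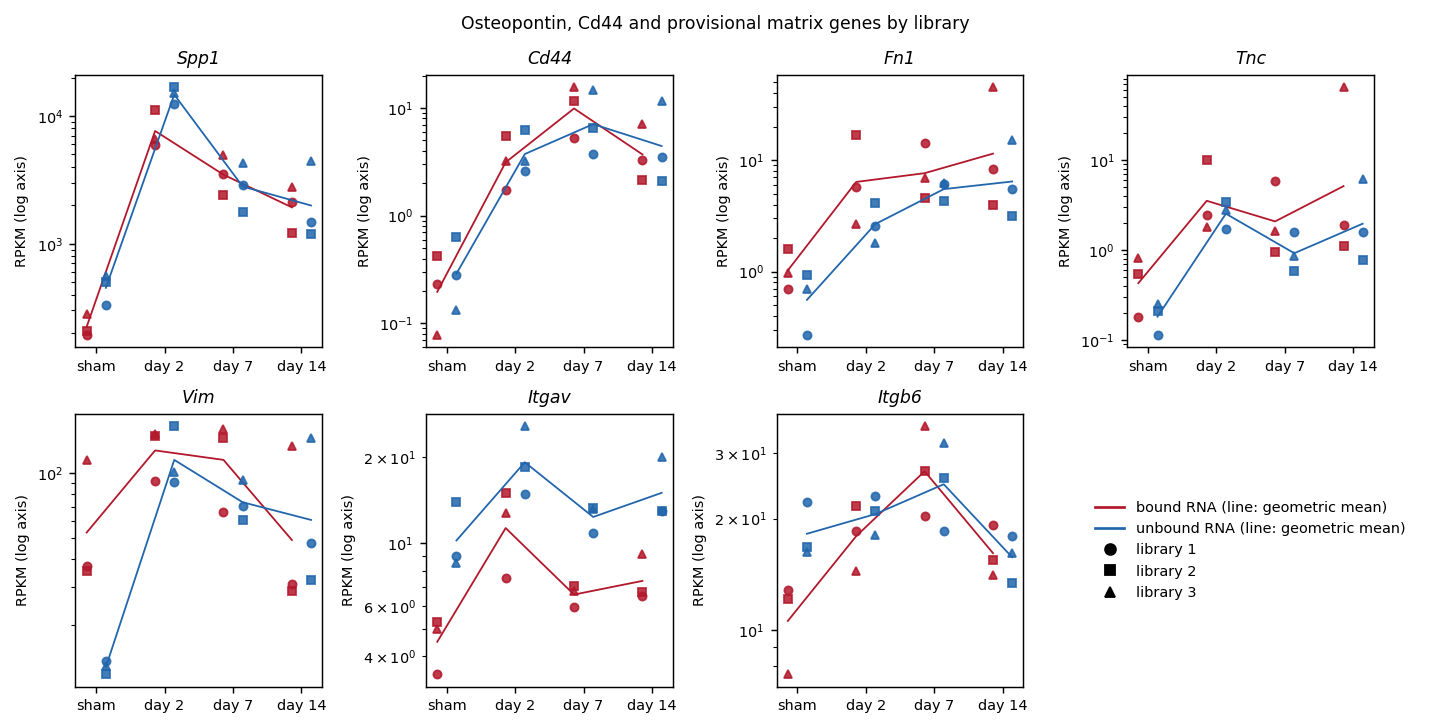
RPKM on a log axis for the 7 genes in sham kidneys and at day 2, day 7 and day 14; each symbol is 1 library, red is bound and blue is unbound RNA, and lines join geometric means of 3 libraries. Spp1 peaks at day 2 in both fractions, the geometric means of Cd44 and Itgb6 are highest at day 7, and the third day 14 library (triangle) stands far above the others for Tnc in bound RNA.

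Cd44, the receptor, was near the limit of measurement in sham kidneys and its level was highest at day 7. In bound RNA it had 0.231, 0.420 and 0.0778 RPKM in sham, 1.73, 5.54 and 3.21 at day 2, 5.32, 11.7 and 15.7 at day 7, and 3.31, 2.16 and 7.14 at day 14. The unbound libraries had 0.283, 0.638 and 0.134 RPKM in sham, 2.61, 6.21 and 3.22 at day 2, 3.74, 6.51 and 14.6 at day 7, and 3.54, 2.12 and 11.7 at day 14. Every sham library lay below every injured library of its fraction, whereas the 3 days overlapped one another. The RPKM of the sham libraries stood for 13 to 91 reads at the inferred depths, and the 95% Poisson interval of the lowest, 13 reads, was 6.92 to 22.2 reads, which covers counting error only. Macrophage markers moved with Cd44 from library to library, as did the stromal ones in unbound RNA, and their values stand with those of Fn1 and Tnc.

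In bound RNA the log2 folds of Cd44 against sham were 2.34 at day 2 (SE 0.55, adjusted p = 0.00554 in limma), 3.84 at day 7 (adjusted p = 0.000135) and 2.55 at day 14 (adjusted p = 0.00656). Leaving out any 1 library ended none of these 3 calls. Their size depends on the pseudocount: with 0.1 they were 3.37, 5.002 and 3.61, and with 1 they were 1.77, 3.16 and 1.96. In unbound RNA they were 2.37 (adjusted p = 0.00623), 3.21 (adjusted p = 0.0052) and 2.61 (adjusted p = 0.027). The unbound calls were lost at day 2 without day 2 library 2 (2.04, adjusted p = 0.0514) and at day 7 without day 7 library 3 (2.72, adjusted p = 0.0744). At day 14 the call was lost without sham library 1, 2 or 3 (2.57, 2.84 and 2.42, adjusted p = 0.118, 0.0621 and 0.155) and without day 14 library 3 (1.98, adjusted p = 0.323).

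Itgav, the alpha v subunit, rose at day 2. In bound RNA it had 3.45, 5.25 and 5.0 RPKM in sham, 7.52, 15.0 and 12.7 at day 2, 5.94, 7.08 and 6.79 at day 7, and 6.49, 6.73 and 9.11 at day 14. The unbound levels were 8.98, 13.9 and 8.48 RPKM in sham, 14.9, 18.5 and 25.7 at day 2, 10.8, 13.2 and 13.1 at day 7, and 13.0, 13.0 and 20.1 at day 14. Bound sham libraries lay below all later bound libraries, while in unbound RNA sham overlapped with day 7 and day 14. The log2 fold at day 2 was 1.24 in bound (SE 0.26, adjusted p = 0.00262 in limma) and 0.88 in unbound RNA (adjusted p = 0.0283). The unbound call was lost without sham library 1 or 3 (0.79 and 0.75, adjusted p = 0.106 and 0.122) and without day 2 library 2 or 3 (0.91 and 0.68, adjusted p = 0.0823 and 0.142). At day 7 and day 14 Itgav was not called in either fraction, with log2 folds of 0.50 and 0.65 in bound and 0.26 and 0.53 in unbound RNA. Marker sums moved with Itgav too, and their values stand with those of Fn1 and Tnc.

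Itgb6, the beta subunit restricted to epithelia, rose in bound RNA. It had 12.9, 12.2 and 7.61 RPKM in sham bound RNA, 18.5, 21.6 and 14.4 at day 2, 20.3, 26.8 and 35.4 at day 7, and 19.2, 15.5 and 14.1 at day 14. Its unbound levels were 22.1, 16.8 and 16.2 RPKM in sham, 23.0, 20.9 and 18.0 at day 2, 18.5, 25.7 and 31.9 at day 7, and 18.0, 13.4 and 16.1 at day 14. The sham bound libraries lay below every other bound library, and in unbound RNA sham overlapped with all 3 days. The bound log2 fold was 1.30 at day 7 (SE 0.25, adjusted p = 0.00128 in limma) and 0.73 at day 2 (adjusted p = 0.0412). The day 7 call held in all the alternatives run. The day 2 call was lost after median-ratio rescaling (0.51, adjusted p = 0.188) and quantile normalization (0.61, adjusted p = 0.11). It was also lost without sham bound library 2 or 3 (0.82 and 0.50, adjusted p = 0.0523 and 0.153) and without day 2 bound library 1 or 2 (0.71 and 0.60, adjusted p = 0.0601 and 0.175). In unbound RNA the log2 folds were 0.17, 0.43 and -0.20 at day 2, day 7 and day 14, with no call, and the day 2 value was -0.03 after median-ratio rescaling.

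Markers of several cell types, among them collecting duct and podocytes, moved in bound RNA in the direction opposite to Itgb6. The 10 collecting duct markers summed to 141, 290 and 952 RPKM in sham, 124, 124 and 510 at day 2, 116, 103 and 64.5 at day 7, and 146, 121 and 141 at day 14. The 8 podocyte markers summed to 139 to 432 RPKM in sham, 88.1 to 396 at day 2, 48.7 to 77.0 at day 7 and 80.7 to 127 at day 14. Avpr2 of the collecting duct list was listed at 0 in some libraries, and the other markers of both lists were above 0 in all. Over the 12 bound libraries the r with Itgb6 was -0.83 for the collecting duct sum and -0.802 for the podocyte sum, and over the 12 unbound libraries it was -0.534 and -0.18. In bound RNA it was also -0.789 for distal convoluted tubule, -0.639 for thick ascending limb and -0.627 for endothelium. For macrophages it was 0.466. The lowest Itgb6 of sham and that of day 2 were in the libraries with the most collecting duct and podocyte markers in their group, sham bound library 3 and day 2 bound library 3. The part of these cells in the bound Itgb6 values was not tested.

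Fn1, which encodes fibronectin, rose in bound RNA at each day. It had 0.705, 1.59 and 0.965 RPKM in sham bound RNA, 5.76, 16.8 and 2.69 at day 2, 14.2, 4.54 and 6.94 at day 7, and 8.27, 3.996 and 45.4 at day 14. The unbound libraries held 0.270, 0.931 and 0.693 RPKM in sham, 2.57, 4.13 and 1.80 at day 2, 6.09, 4.34 and 6.29 at day 7, and 5.53, 3.17 and 15.2 at day 14. Sham lay below all injured libraries in both fractions, and the third day 14 mouse was the highest at that day in both. The bound log2 folds were 2.18 at day 2 (SE 0.68, adjusted p = 0.0272 in limma), 2.41 at day 7 (adjusted p = 0.0149) and 2.98 at day 14 (adjusted p = 0.00835). The day 14 fold was 2.02 without day 14 bound library 3 and 3.70 without library 2, and remained called in both. The day 2 call was lost without sham bound library 1 (2.00, adjusted p = 0.0945) or day 2 bound library 2 (1.53, adjusted p = 0.176), and the fold was 2.75 without day 2 bound library 3. The day 7 call was lost without sham bound library 1 (2.23, adjusted p = 0.0577) or day 7 bound library 1 (1.99, adjusted p = 0.0733). In unbound RNA the log2 folds were 1.54, 2.45 and 2.68, and none passed (adjusted p = 0.127, 0.0776 and 0.0524).

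Tnc, which encodes tenascin-C, was not called against sham at any day. In bound RNA it had 0.179, 0.538 and 0.814 RPKM in sham, 2.43, 9.96 and 1.83 at day 2, 5.92, 0.947 and 1.62 at day 7, and 1.90, 1.10 and 65.4 at day 14. In unbound RNA it had 0.113, 0.208 and 0.254 RPKM in sham, 1.71, 3.42 and 2.79 at day 2, 1.58, 0.582 and 0.856 at day 7, and 1.58, 0.775 and 6.20 at day 14. No sham library overlapped with an injured library of its fraction, but injured libraries of one group differed widely among themselves, most of all at day 14 in bound RNA. The bound log2 folds were 2.09, 1.47 and 2.70 (SE 0.94, adjusted p = 0.119, 0.269 and 0.059 in limma). The unbound ones were 2.15, 1.07 and 1.92 (adjusted p = 0.125, 0.611 and 0.248). Without day 14 bound library 3 the day 14 bound fold was 1.01 (adjusted p = 0.302), and without library 2 it was 3.69 (adjusted p = 0.0238). With a pseudocount of 0.1 Tnc was called at day 14 in bound (3.30, adjusted p = 0.0406) and at day 2 in unbound RNA (3.21, adjusted p = 0.0433).

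Cd44, Fn1, Tnc and Vim each moved with markers of stroma or macrophages from library to library. Stromal markers summed to 105 to 144 RPKM in sham, 209 to 823 at day 2, 81.6 to 210 at day 7 and 67.6 to 744 at day 14 in bound RNA. Macrophage markers summed to 44.9 to 75.7 RPKM in sham, 106 to 289 at day 2, 230 to 353 at day 7 and 145 to 2265 at day 14. In unbound RNA the stromal sums were 67.1 to 94.8 RPKM in sham, 265 to 474 at day 2, 125 to 245 at day 7 and 129 to 606 at day 14, and the macrophage sums were 77.7 to 109, 137 to 290, 450 to 1014 and 372 to 2190 RPKM. Both sums were thus higher in every injured unbound library than in every sham one. The bound libraries with the most Fn1 and Tnc, day 14 library 3 and day 2 library 2, had the 2 highest stromal sums of the bound fraction, at 744 and 823 RPKM. Correlations with the macrophage sum over the 12 bound libraries were 0.761 for Cd44, 0.93 for Fn1, 0.874 for Tnc and 0.353 for Vim, and over the 12 unbound libraries 0.878, 0.954, 0.602 and 0.668. With the stromal sum they were 0.202, 0.649, 0.823 and 0.505 in bound and 0.758, 0.736, 0.959 and 0.937 in unbound RNA for the same genes in that order. Some of these values rest on the third day 14 mouse. Over the 22 libraries of both fractions without it, the r with the macrophage sum was 0.833 for Cd44, 0.721 for Fn1, 0.372 for Tnc and 0.324 for Vim, against 0.796, 0.813, 0.637 and 0.426 over all 24. With the stromal sum it was 0.347, 0.498, 0.787 and 0.646 without that mouse, against 0.444, 0.651, 0.817 and 0.677. These libraries share groups and mice, so the values are descriptions. All 15 macrophage markers were above 0 in every library, and of the 12 stromal markers Meg3 was listed at 0 in all but 2 libraries. Spp1 and Itgav also moved with the stromal sum, with an r of 0.517 and 0.627 in bound and 0.85 and 0.69 in unbound RNA. With the neutrophil sum their r was 0.573 and 0.741 in bound and 0.749 and 0.681 in unbound RNA. With the macrophage sum it was 0.549 and 0.432 in bound and 0.348 and 0.307 in unbound RNA. With the sum of injured tubule and thin limb markers, described with Vim below, it was 0.41 and 0.37 in bound RNA. In unbound RNA that r was 0.866 and 0.572, for Spp1 the highest with any of these sums. With the proximal tubule sum it was -0.802 and -0.919 in bound and -0.873 and -0.826 in unbound RNA. The part of these cells in the values of Spp1, Cd44, Fn1, Tnc, Vim and Itgav was not tested.

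**Figure D3:**
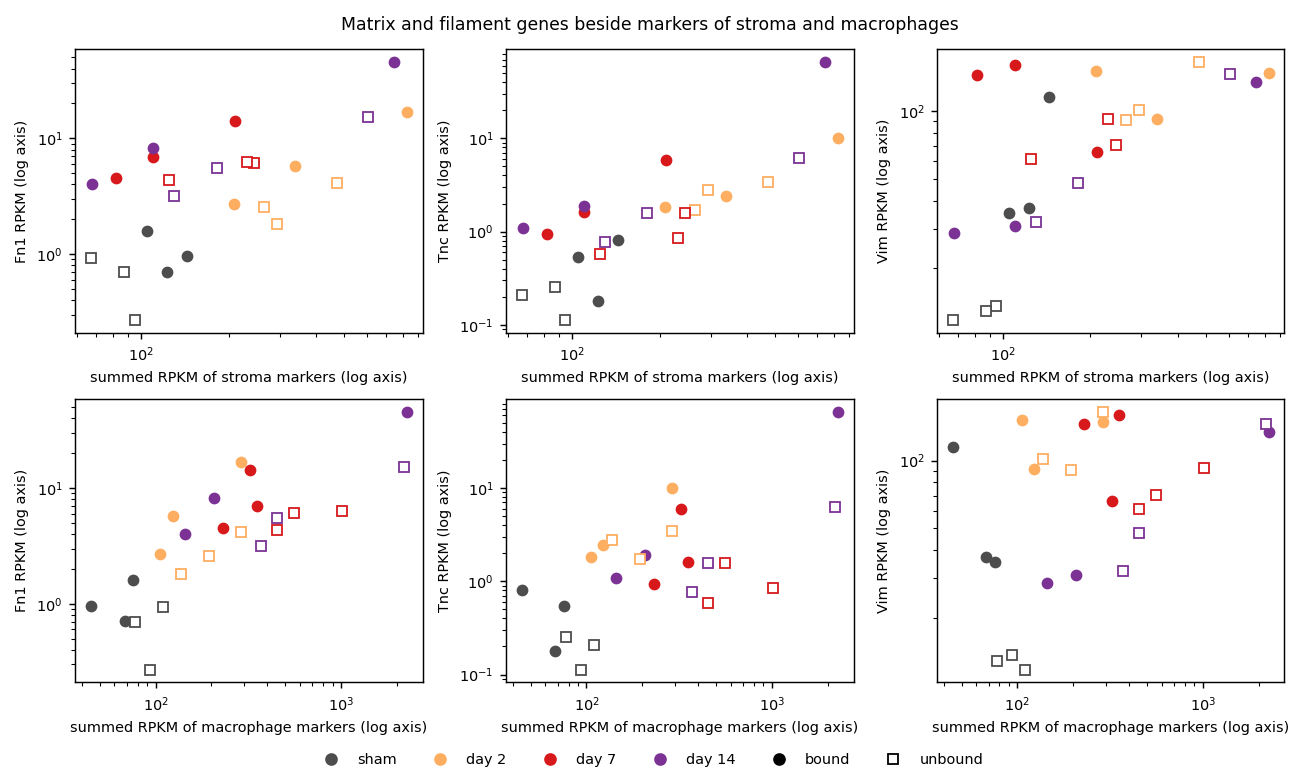
RPKM of Fn1, Tnc and Vim against the summed RPKM of 12 stromal markers (top) and 15 macrophage markers (bottom), all on log axes; each point is 1 library, filled for bound and open for unbound RNA, coloured by time. The day 14 bound library at the upper right, with 45.4 RPKM of Fn1 and 65.4 RPKM of Tnc, is from the third day 14 mouse.

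Vim, the filament gene, rose in unbound RNA and was not called in bound RNA. In bound RNA it had 37.3, 35.3 and 115 RPKM in sham, 91.9, 148 and 151 at day 2, 66.0, 145 and 159 at day 7, and 31.0, 28.6 and 134 at day 14. In unbound RNA it had 13.7, 11.8 and 12.9 RPKM in sham, 91.3, 164 and 101 at day 2, 70.3, 60.9 and 92.5 at day 7, and 47.9, 32.3 and 146 at day 14. The unbound sham libraries lay close together and below every injured one, whereas in bound RNA sham overlapped with all 3 days. The bound log2 folds against sham were 1.25, 1.10 and -0.11 at day 2, day 7 and day 14 (SE 0.56, adjusted p = 0.118, 0.158 and 0.916 in limma). The unbound ones were 3.12 at day 2 (adjusted p = 0.000719), 2.48 at day 7 (adjusted p = 0.0359) and 2.21 at day 14 (adjusted p = 0.0524, not called). Beside the unbound rise, the unbound stromal markers summed to 265 to 474 RPKM at day 2 and 125 to 245 at day 7, against 67.1 to 94.8 in sham. The 6 markers listed for injured tubule and thin limb were Havcr1, Lcn2, Sox9, Vcam1, Cldn4 and Cryab. They summed to 710 to 969 RPKM at day 2 and 466 to 985 at day 7 in unbound RNA, against 298 to 383 in sham. The r of Vim with this sum was 0.819 over the 12 unbound and 0.714 over the 12 bound libraries. The sum is not a measure of injury alone, since it was also high in sham bound library 3.

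Sham bound library 3 carried the most Vim of its group and stood apart for several marker sets. It had 2203 RPKM of the injured tubule and thin limb markers, against 411 and 362 in the other sham bound libraries. Havcr1, at the sham levels given above, made up little of the 2203 RPKM, and the shares of the other genes are not given here. Beside it stood the 432 RPKM of podocyte and 952 RPKM of collecting duct markers given above. Day 2 bound library 3 was likewise the highest of its group in these sets, with 2513, 396 and 510 RPKM, against 749 and 930, 88.1 and 122, and 124 and 124 RPKM in the other 2 libraries. Over the 12 bound libraries the r of Vim was 0.175 with the podocyte and 0.0518 with the collecting duct sum. Without sham bound library 3, Vim was called in bound RNA at day 2 (1.80, adjusted p = 0.0285) and day 7 (1.65, adjusted p = 0.0379), and the day 14 value was 0.44. The day 14 bound value was also positive without day 14 bound library 1 or 2 (0.22 and 0.27). The unbound day 7 call was lost without any 1 of the sham or day 7 unbound libraries, with log2 folds of 2.52, 2.42 and 2.48 without sham library 1, 2 or 3 and 2.51, 2.61 and 2.31 without day 7 library 1, 2 or 3 (adjusted p = 0.116, 0.113, 0.111, 0.11, 0.0816 and 0.194). It was also lost after quantile normalization (2.31, adjusted p = 0.0531). At day 14 in unbound RNA Vim was called after median-ratio rescaling (1.97, adjusted p = 0.0471), with a pseudocount of 0.1 (2.24, adjusted p = 0.0455) and without day 14 unbound library 2 (2.66, adjusted p = 0.0283). The part of any of these cells in the Vim values was not tested.

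How the spread was estimated and which genes were tested also decided some calls. With only the libraries of the groups compared, which leaves 6 libraries a fit, the bound calls of Cd44 at day 14 (adjusted p = 0.0647), Fn1 at day 2 and day 14 (0.0911 and 0.135), and Itgav and Itgb6 at day 2 (0.0926 and 0.219) were lost. In unbound RNA that fit lost Spp1 and Cd44 at day 14 (both 0.114) and called Fn1 at day 2 and day 7 (0.016 and 0.00373) and Tnc at day 2 and day 7 (0.0024 and 0.04). With no filter on low values, Fn1 and Itgb6 at day 2 in bound RNA (0.0662 and 0.0658), Itgav at day 2 (0.0501), Vim at day 7 (0.104), and Spp1 and Cd44 at day 14 (0.0937 and 0.0721) in unbound RNA were lost. At day 14 in unbound RNA quantile normalization ended the call of Spp1 (0.0546) and a pseudocount of 1 that of Cd44 (0.0513). With a pseudocount of 0.1 Fn1 was called in unbound RNA at day 7 (3.06, adjusted p = 0.0382) and day 14 (3.29, adjusted p = 0.0307), and at day 14 also after median-ratio rescaling (2.52, adjusted p = 0.0464) and without day 14 unbound library 2 (3.15, adjusted p = 0.0321).

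Spp1 was the member called when later days were set against day 2, and it was lower at the later day. In bound RNA 0 of the 7 genes were called at day 7 against day 2 by limma (7.09% of all genes, and 4 members and 3072 genes at an unadjusted p under 0.05). At day 14 against day 2 in bound RNA 1 was called (6.64% of all genes), which was Spp1 with a log2 fold of -1.99 (SE 0.45, adjusted p = 0.00796). That call was lost without day 2 bound library 2 (-1.71, adjusted p = 0.0592) or day 14 bound library 2 (-1.65, adjusted p = 0.0638), and with only the libraries of these 2 groups (adjusted p = 0.369). In unbound RNA Spp1 was the 1 member called at day 7 against day 2 (log2 fold -2.39, adjusted p = 0.00527, 3.51% of all genes) and at day 14 against day 2 (-2.88, adjusted p = 0.000421, 4.95%). Cd44 differed between day 7 and day 2 by a log2 fold of 1.51 in bound RNA (adjusted p = 0.105) and 0.84 in unbound RNA (adjusted p = 0.514), neither of them called. Between day 14 and day 7 limma called 0 members in bound RNA (0% of all genes, with 3 members and 868 genes at an unadjusted p under 0.05). It also called 0 in unbound RNA (0.00729%, with 1 member and 352 genes). Without day 2 bound library 1, Itgav was called at day 7 against day 2 in bound RNA (-1.02, adjusted p = 0.0263).

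The fractions were compared within each time, with libraries numbered alike taken as bound and unbound RNA of 1 mouse. This pairing rests on the library numbers, and the correlations given with the processing do not establish it. In sham kidneys 3 of the 7 genes were called, 1 higher and 2 lower in bound RNA, where 27.6% of all genes were called. Vim was higher in bound RNA by a log2 fold of 2.02 (adjusted p = 0.0104), Itgav lower by -1.10 (adjusted p = 0.00448) and Itgb6 lower by -0.75 (adjusted p = 0.0277). The Vim call was lost without sham bound library 3 (1.47, adjusted p = 0.0593), the library that stood apart for the marker sets. The Itgb6 call was lost without that library (-0.52, adjusted p = 0.128) or sham unbound library 1 (-0.61, adjusted p = 0.125), and with only the sham libraries (adjusted p = 0.0799). At day 2, day 7 and day 14 limma called 0 members (1.68%, 2.35% and 0.816% of all genes), with 2, 1 and 1 members and 2423, 2252 and 1439 genes at an unadjusted p under 0.05.

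With the mouse as a block, which pairs the fractions by library number, more members were called in limma. These calls and the ratios within mice depend on that assumed pairing. The share of all genes called in that fit is not given here, so this increase has no background beside it. Itgav was lower in bound RNA at day 2 (-0.74, adjusted p = 0.0209), day 7 (-0.86, adjusted p = 0.00843) and day 14 (-0.98, adjusted p = 0.0093). Within mice its bound level was 0.377 to 0.810 of its unbound level, below 1 in 12 of 12 mice. Spp1 was lower in bound RNA in sham (-1.01, adjusted p = 0.00639) and at day 2 (-0.95, adjusted p = 0.0337). Its ratio was 0.587, 0.410 and 0.509 in sham, 0.479, 0.665 and 0.439 at day 2, 1.22, 1.34 and 1.16 at day 7, and 1.42, 1.01 and 0.629 at day 14. All sham and day 2 mice thus had less Spp1 in bound RNA and all day 7 mice had more. Fn1 was higher in bound RNA at day 2 (1.13, adjusted p = 0.0305), and its ratio was above 1 in 12 of 12 mice, from 1.05 to 4.07. The ratio of Tnc was above 1 in 11 of 12 mice, from 0.655 to 10.6, with no call in either fit.

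**Figure D4:**
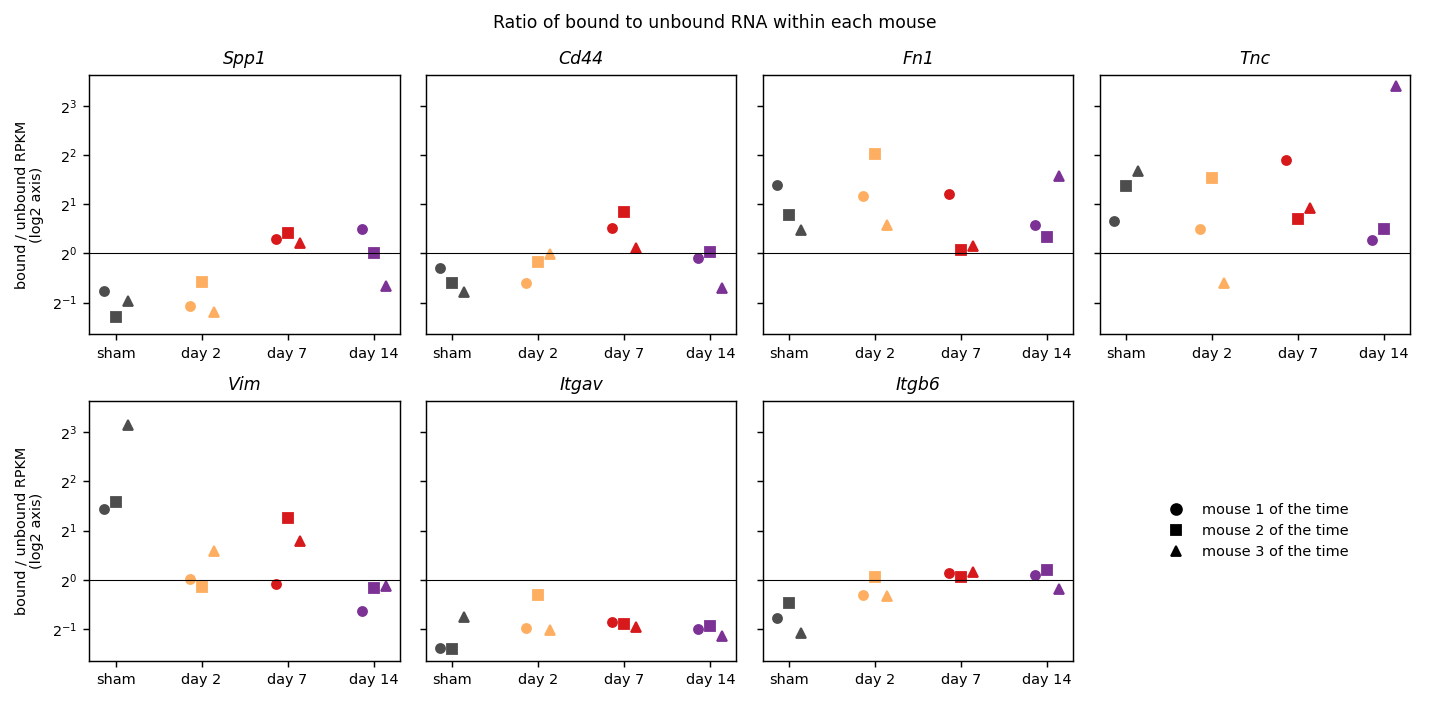
Bound over unbound RPKM of each gene within each of 12 mice on a log2 axis, by time, with a line at 1. Each symbol is 1 mouse, with libraries numbered alike taken as 1 mouse. Itgav lies below 1 in every mouse and Fn1 above 1 in every mouse, while Spp1 lies below 1 in sham and day 2 mice and above 1 in the 3 day 7 mice.

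Whether injury changed the fractions unequally was tested as the interaction of fraction with day against sham. Without a block limma called 0 members at day 2 (0% of all genes, and 1 member and 758 genes at an unadjusted p under 0.05). It called 0 at day 7 (0.146%, with 1 member and 2320 genes) and 0 at day 14 (0.197%, with 2 members and 2267 genes). The block by mouse again depends on the pairing assumed from library numbers. With it, the log2 fold against sham of Spp1 at day 7 was larger in bound than in unbound RNA by 1.32 (adjusted p = 0.0483, against 0.296 without the block). For Itgb6 at day 7 the difference was 0.86 (adjusted p = 0.0434, against 0.226). For Vim at day 14 the fold was smaller in bound RNA, with a difference of -2.32 (adjusted p = 0.0156, against 0.166). The Vim difference without a block was -3.04 (adjusted p = 0.012) when day 14 bound library 3 was left out, and -2.42 (adjusted p = 0.0325) without both libraries of the third day 14 mouse. It shrank to -1.70 without day 14 unbound library 3, and its adjusted p reached 0.427 without day 14 bound library 2. Leaving out 1 library moved the day 7 difference without a block from 0.99 to 1.62 for Spp1. For Itgb6 it moved from 0.64, without sham bound library 3, to 1.06.

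Other genes of these pathways were counted in 7 lists, beside the shares of all tested genes. Some, such as Mmp3, Lum, Fgb and Tgfb2, had mean sham levels under 1 RPKM in bound RNA (0.17, 0.25, 0.78 and 0.69). Such genes may have passed the filter on low values through injured libraries, so these counts describe the genes and do not support a direction. At day 2 in bound RNA 13.3% of all genes rose and 6.48% fell, and in unbound RNA 9.76% rose and 5.04% fell. Of the 13 tested integrin subunits other than the members, 6 rose at day 2 in bound RNA and 6 in unbound RNA, with median log2 folds of 0.71 and 0.97 against 0.16 and 0.20 over all genes. In bound RNA Itgb1, the shared beta 1 subunit, rose by 1.55, Itga6 by 1.16, Itga5, the fibronectin receptor subunit, by 1.74 and Itgb4 by 1.25. At day 7 in bound RNA 2 rose, the collagen receptor subunit Itga1 (1.54) and Itgb1 (0.86), and at day 14 the same pair was called (0.79 and 0.95). These 2 of 13 are near the 15.2% of all genes that rose at day 7, and stand beside 8.71% at day 14.

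Provisional matrix and matricellular genes rose in 6 of 23 cases at day 2 in bound RNA and in 7 of 23 in unbound RNA, with medians of 0.92 and 1.27. The fibrinogen chain genes Fgg (3.04) and Fgb (3.68), whose products form the clot, and Ctgf (2.47) and Cyr61 (2.77), which encode matricellular proteins, rose in bound RNA. Fgg (2.61), Fga (2.08), Ctgf (2.28) and Sparc (2.22) rose in unbound RNA. At day 7 Cyr61 was the 1 gene of this list called in bound RNA (2.08), and at day 14 Fbln1 (1.55) and Lum (1.79) were. That 1 of 23 is below the 15.2% of all genes at day 7, and the 2 of 23 at day 14 are near 8.71%. In the list of osteopontin relatives and the enzymes that process osteopontin, 1 of 7 tested genes rose at day 2 in each fraction, which was Plaur, the urokinase receptor gene (2.74 in bound and 3.22 in unbound RNA). At day 14 in bound RNA the protease gene Mmp3 was the 1 of 7 called (2.15). Each count of 1 in 7 is near the share of all genes that rose in its comparison, 13.3%, 9.76% and 8.71%.

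Among hyaluronan and syndecan genes 2 of 11 rose and 1 fell at day 2 in bound RNA, near the 13.3% and 6.48% of all genes. Sdc1, which encodes syndecan-1, rose by 2.20 in bound and 2.40 in unbound RNA, and Hmmr, a hyaluronan-binding protein that also acts at the mitotic spindle, by 3.09 and 2.87. Habp2 fell by 1.01 in bound RNA, and Hyal2, a hyaluronidase gene, fell by 0.72 in unbound RNA. Both Sdc1 and Hmmr were lower at day 7 than at day 2 in bound RNA (-1.48 and -2.0). Among latent TGF-beta genes, Tgfbi (2.42) and Tgfbr1 (1.08) rose at day 2 in bound RNA. At day 7 and day 14 in bound RNA Tgfb2 was called (1.88 and 2.03).

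Intermediate filament genes other than Vim rose in 5 of 9 cases at day 2 in both fractions, with medians of 0.99 in bound and 1.44 in unbound RNA. The keratin genes Krt20 (6.68), Krt19 (2.93) and Krt8 (0.99) and the lamin gene Lmna (1.13) were among them in bound RNA. In sham kidneys 5 of the 9 were higher in bound than in unbound RNA, where 14.6% of all genes were, Krt18 by 2.77, Krt8 by 2.16, Nes by 1.93 and Krt7 by 1.56 among them, beside the higher Vim. Genes that link membrane receptors to actin rose in 4 of 22 cases and fell in 1 at day 2 in bound RNA, with a median of 0.16, against 0.16 over all genes, and these counts too are near the 13.3% and 6.48% of all genes. Flna, which encodes filamin A, rose by 2.57 and Tns1, which encodes tensin, fell by 0.95. In sham kidneys 12 of the 22 were higher in bound RNA, against the same 14.6%, led by the actinin genes Actn4 (5.65) and Actn1 (4.75). Both sham counts include sham bound library 3, which stood apart for podocyte and collecting duct markers. Values of the listed genes without that library are not given here.

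The 7 genes differed in the genes they resembled. Likeness was taken as Pearson's r of log2(RPKM + 0.5) over the 24 libraries, which share mice and groups, and the 3 closest named genes were taken for each. Spp1 was closest to Slc34a2, a phosphate transporter gene (r = 0.94), and to Cenpw and Sema3c (both 0.93). Cd44 was closest to Basp1 and the chemokine gene Ccl2 (both 0.96) and to Panx1 (0.94). Fn1 was closest to Ccdc80, the protease gene Mmp14 and the collagen receptor gene Mrc2 (0.92 for each), and Tnc to Stab1 (0.91), Lrp1 and the collagen gene Col5a2 (both 0.90). Vim was closest to Plekho1 (0.95), Anxa3 and Klf6 (both 0.94), Itgav to Adam10, Slc16a12 and Mbnl1 (0.94 for each), and Itgb6 to Cpn1 (0.84), Tfec (0.83) and Zdhhc2 (0.81). Among the 7 genes themselves the highest r over the 24 libraries was that of Fn1 with Tnc (0.86), followed by Cd44 with Fn1 (0.77) and Spp1 with Cd44 (0.73). Tnc and Itgb6 had an r of 0.01.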

How the data were processed

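RNA sequencing of bound and unbound kidney RNA gave 24 libraries in 8 groups of 3. Per the submitters' processing notes, the tools included STAR 2.0.4b, featureCounts 1.4.5, Subread and edgeR. Neither build nor annotation is given in the sources used here. The values deposited by the authors are RPKM, 1 column per library. The table has 41831 lines for 40750 genes, and 1081 repeated lines were identical and dropped. Read counts were not used here. Depth was inferred from the spacing of low values with GENCODE M21 exon lengths, where 73.7% to 78.0% of values up to 50 reads came within 0.02 of whole reads, against 4.0% by chance. The implied reads of Cd44, Fn1, Tnc, Itgav and Itgb6 came within 0.1 of whole reads in all 24 libraries, those of Spp1 in 17 and those of Vim in 5.

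The 13721 genes that reached 1 RPKM in 3 or more libraries were fitted with limma 3.58.1 in R 4.3.3 on log2(RPKM + 0.5), with 8 group means and a trended prior, and p-values were adjusted within each comparison. The steps were tested on simulated data. Libraries numbered alike were taken as 1 mouse across fractions. After subtracting group means they correlated at 0.27 to 0.67 in all 12 pairs. A fit blocked by mouse is given beside fraction results where it changes a call. Between times the mice differ, and r was over 0.1 in all 3 pairs only for day 14 with day 7 in bound RNA (0.13, 0.17 and 0.14). Single pairs between times were higher. Libraries 1 and 3 of day 2 with sham in bound RNA had 0.26 and 0.34. Libraries 2 and 3 of day 14 with day 7 in unbound RNA had 0.34 and 0.37. Some of these lie within the range across fractions, so the correlations alone do not establish the pairing. The p-values rest on 1 spread per gene, pooled over the 8 groups and drawn toward that of genes of similar level. They do not measure the spread of only the groups compared, and without a block both fractions of a mouse count as separate libraries.

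The 7 genes, the gene lists and the tests were chosen with earlier results of these data known. The rule named the 7 genes, the 3 most alike genes of each, up to 4 called genes of smallest p per list and comparison, marker sums with genes at 0, Havcr1 and the rank of Spp1. Alternatives were other pseudocounts, filters, scalings and priors, fits on the groups compared alone, blocks, and leaving out each library or the third day 14 mouse. Some genes that this rule selects are not reported here.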

Additional observations from a re-analysis of the deposited data

How the results depend on the processing

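Of 70 values of single genes, 33 kept their direction and side of the threshold in every alternative. Over the 70, alternatives left 1012 on the same side, 57 lost a call, 36 gained one and 4 reversed. Those 4 are Vim at day 14 in bound RNA (main value -0.11, from -0.83 to 0.44 over the leave-one-out fits, and 0.44, 0.22 and 0.27 without sham bound library 3, day 14 bound library 1 and day 14 bound library 2) and Itgb6 at day 2 in unbound RNA (main value 0.17, and -0.029 after median-ratio rescaling). The cause of these changes was not tested, beyond the fewer libraries or other genes that an alternative uses. With a mean of at least 5 RPKM required, Cd44 and Tnc were not among the genes tested.

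Counts of called members at day 14 against sham in unbound RNA, 2 in the main fit, were 4 with a pseudocount of 0.1 and after median-ratio rescaling, 1 with a pseudocount of 1, with a mean of at least 5 RPKM and after quantile normalization, and 0 without a filter, with only the groups compared and without the third day 14 mouse. At day 2 against sham in bound RNA the count of 5 was 3 without a filter and 2 with only the groups compared. With only the groups compared, day 14 against sham in bound RNA gave 1 in place of 3, day 14 against day 2 in bound RNA 0 in place of 1, day 7 against sham in unbound RNA 5 in place of 3, and bound against unbound at day 7 gave 1 in place of 0. Bound against unbound at day 7 and at day 14 gave 1 each under median-ratio rescaling and again under quantile normalization. Without the third day 14 mouse, day 14 against day 2 gave 2 in bound and 2 in unbound RNA, in place of 1 each, and the day 14 interaction gave 1 in place of 0.

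Leaving out 1 library moved these counts as follows: 3 to 5 at day 2, 3 to 5 at day 7 and 3 to 4 at day 14 against sham in bound RNA; 2 to 4, 0 to 2 and 0 to 4 in unbound RNA. It gave 0 to 1 at day 7 against day 2 and 0 to 2 at day 14 against day 2 in bound RNA, 1 to 3 between fractions in sham, and 0 to 1 between fractions and in the interaction at day 14. The day 14 unbound count was 0 without any 1 of the sham unbound libraries or day 14 unbound library 3, and the day 7 unbound count was 0 without day 7 unbound library 3. The count between fractions in sham was 1 without sham bound library 3. These leave-one-out counts likewise stand without a share of all genes.

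With the replicate block by mouse, bound against unbound called 4 members in sham, 3 at day 2, 1 at day 7 and 1 at day 14, and the interactions 0 at day 2, 2 at day 7 and 1 at day 14. No share of all genes called is given here for this block, so these counts stand without a background. With a replicate block within a fraction, where the numbers do not pair mice, the counts against sham were 4 and 4 at day 2, 4 and 3 at day 7 and 3 and 3 at day 14 in bound and unbound RNA. That block changed no call between day 14 and day 7 in bound RNA, and its counts too stand without a background. At 3 libraries a group, genes near 0.5 RPKM such as Cd44 and Tnc in sham rest on few reads.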
